A study of Mus musculus with 16 samples.

Results

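The transcripts described here are those of the mouse zinc-finger genes numbered Zfp400 to Zfp999, taken as every row of the authors' deposited Igf2bp2 RIP-chip table that carries a single symbol of this form. They make up 180 of 35556 rows and stand for 168 of 20170 distinct single symbols. The symbols were still current for 164 genes in the RefSeq annotation of GRCm38.p6, and 4 were synonyms of a current gene (Zfp498 is now Zscan25, Zfp607 is Zfp607a, Zfp826 is Zfp950 and Zfp828 is Champ1). A symbol says only that the protein has zinc fingers, so the set is a numbered series of gene names and not a single pathway.

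RNA was precipitated from HL-1 cells, an established line of mouse atrial cardiomyocytes, with anti-Igf2bp2 or with control IgG, and was read on Affymetrix arrays. Before precipitation the cells had received either a scrambled siRNA or the siRNA siAirn-001.1 against Airn, the non-coding antisense transcript of the Igf2r locus, each at 10 nM. The 4 groups (antibody by siRNA) held 4 arrays each, labelled as biological replicates. All groups came from 1 cell line and Airn was targeted with 1 siRNA, per the labels. Each value below subtracts the IgG level from the anti-Igf2bp2 level, so a positive value means more of an RNA in the Igf2bp2 precipitate. The table's header gives no log base, and the differences are read here as log2. The table has no value for a single array, so a low level of a transcript and a lack of binding cannot be told apart, and the spread between arrays is known only through standard errors (SE) recovered from the deposited differences and p-values.

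Zinc-finger proteins of this numbered series mostly carry C2H2 fingers, which fold around a zinc ion and read DNA sequence. Many also carry a KRAB box that recruits the co-repressor Trim28, which in turn brings the histone methyltransferase Setdb1 and heterochromatin proteins to retroelements and imprinted regions. Other members have no KRAB box and act in development, chromatin, ubiquitin or SUMO transfer, or RNA metabolism. Igf2bp2 binds mRNA in the cytoplasm and acts on its stability, transport and translation.

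Markers of cell types were read in the same way, which does not check the identity of the line. With the scrambled siRNA the authors' deposited table called 7 of 9 markers of atrial cardiomyocytes higher and none lower. Those not called were Nppa, at 0.19, and Sln, the atrial sarcolipin gene, at -0.50, per the authors' deposited table. Myh6, also listed, had no row with a single symbol. Of 6 leukocyte markers 3 were lower and 1 higher, of 5 fibroblast markers 2 were lower and 1 higher, and of 4 endothelial markers 2 were lower per the authors' deposited table. Over all rows 20.4% were higher and 16.8% lower, and over rows with a single symbol 25.9% and 16.6%. These are differences between precipitates and not levels, so they do not measure how much of each cell type was present.

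The sequences shown are the promoter windows of the 3 members called with the Airn siRNA, Zfp426, Zfp763 and Zfp583, and of Zfp811, the lowest called gene with 1 row with the scrambled siRNA. They show how unlike the promoters of called members are. The windows run from 250 bases before to 50 bases after the start of the gene and come from RefSeq on GRCm38.p6, all on the minus strand, at chr9:20492697-20492996 for Zfp426, chr17:33033332-33033631 for Zfp763, chr7:6330385-6330684 for Zfp583 and chr17:32809882-32810181 for Zfp811. Each is written 5′ to 3′, and capitals mark CpG dinucleotides.

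Zfp426: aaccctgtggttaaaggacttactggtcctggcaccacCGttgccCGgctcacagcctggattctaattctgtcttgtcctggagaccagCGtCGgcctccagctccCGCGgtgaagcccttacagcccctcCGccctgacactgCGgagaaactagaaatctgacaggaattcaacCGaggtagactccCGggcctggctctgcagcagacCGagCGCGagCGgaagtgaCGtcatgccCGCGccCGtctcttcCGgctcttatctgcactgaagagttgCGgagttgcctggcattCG

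Zfp763: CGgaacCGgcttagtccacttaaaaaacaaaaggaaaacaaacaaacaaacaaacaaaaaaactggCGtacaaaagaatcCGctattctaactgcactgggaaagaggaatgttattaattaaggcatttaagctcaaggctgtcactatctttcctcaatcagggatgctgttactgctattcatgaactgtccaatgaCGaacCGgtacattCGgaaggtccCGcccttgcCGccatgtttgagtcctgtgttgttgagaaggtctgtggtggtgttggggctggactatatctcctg

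Zfp583: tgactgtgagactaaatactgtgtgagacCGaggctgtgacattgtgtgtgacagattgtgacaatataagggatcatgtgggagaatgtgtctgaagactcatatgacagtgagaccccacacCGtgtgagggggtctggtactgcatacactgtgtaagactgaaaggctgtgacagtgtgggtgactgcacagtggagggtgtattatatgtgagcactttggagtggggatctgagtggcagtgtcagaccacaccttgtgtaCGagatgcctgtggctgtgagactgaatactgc

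Zfp811: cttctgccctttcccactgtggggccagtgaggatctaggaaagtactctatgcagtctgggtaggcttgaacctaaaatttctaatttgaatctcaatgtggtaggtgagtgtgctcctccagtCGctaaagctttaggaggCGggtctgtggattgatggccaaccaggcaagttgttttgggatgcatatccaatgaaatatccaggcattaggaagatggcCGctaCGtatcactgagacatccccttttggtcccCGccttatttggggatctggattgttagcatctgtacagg

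The Zfp426 window holds 21 CpG, that of Zfp763 holds 9, that of Zfp583 holds 3 and that of Zfp811 holds 5. The 3 genes called with the Airn siRNA thus had CpG-rich and CpG-poor windows among them.

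With the scrambled siRNA, zinc-finger transcripts lay on both sides of 0, and more of them were higher than lower in the Igf2bp2 precipitates. Of the 180 rows, 46 were called higher and 11 lower per the authors' deposited table at an adjusted p under 0.05, which is 25.6% and 6.11%. Over all 35556 rows the same rule called 20.4% higher and 16.8% lower, and 37.3% in either direction, against 31.7% of the zinc-finger rows. Over the 22406 rows with a single symbol it called 25.9% higher and 16.6% lower, so the share of zinc-finger rows called higher was near that background, and the share called lower was below it. Centred on the median of all rows, 61 were called higher and 8 lower in the recovered test, or 33.9% and 4.44%, against 32.5% and 11.1% of rows with a single symbol and 25.8% and 11.7% of all rows. The median of the zinc-finger rows was 0.18 (quartiles -0.27 and 0.57) per the authors' deposited table, against -0.10 over all rows and -0.02 over rows with a single symbol. Of the 180 rows 110 lay above 0, or 61.1%, against 46.2% of all rows and 49.5% of those with a single symbol. Before adjustment 86 rows had p under 0.05, 60 higher and 26 lower, or 47.8% against 51.9% of all rows and 58.1% of rows with a single symbol. Their recovered SE ran from 0.16 to 0.52 with a median of 0.23, close to the 0.25 of all rows.

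**Figure D1:**
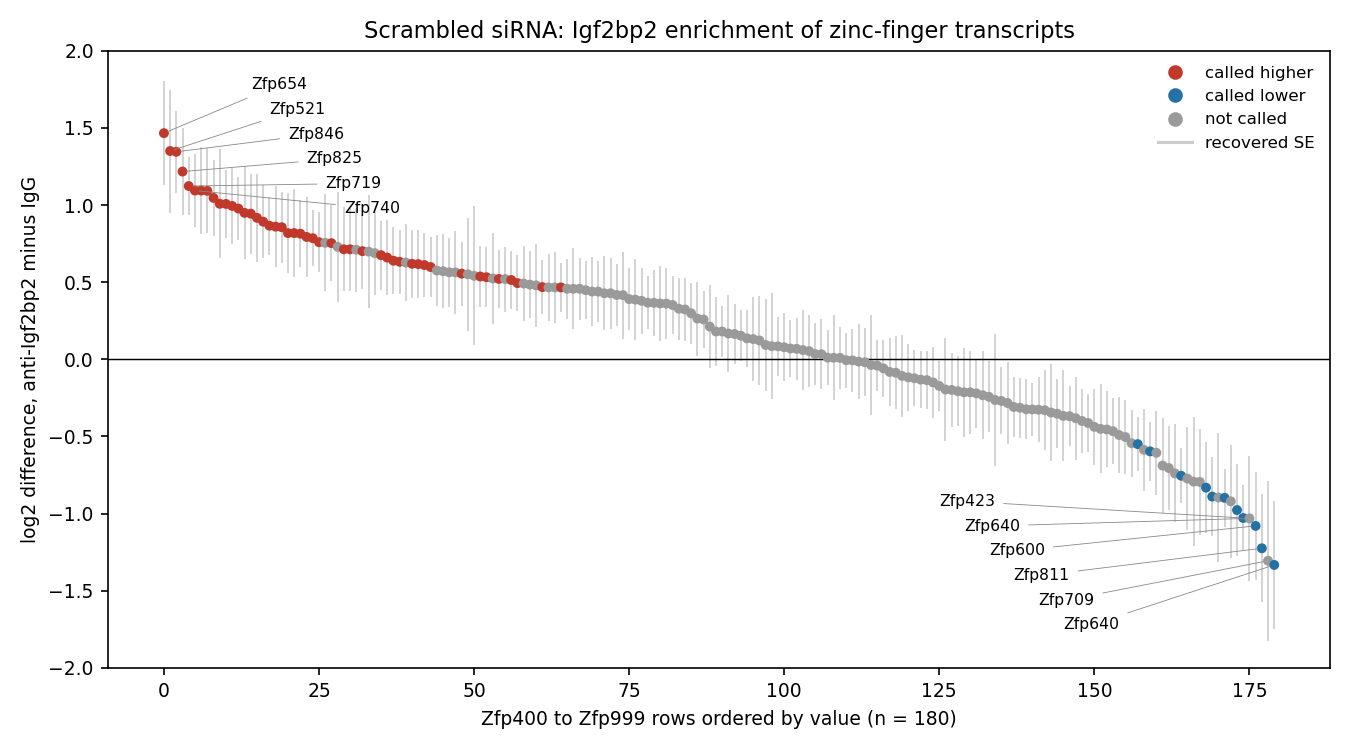
Log2 difference, anti-Igf2bp2 minus IgG, with the scrambled siRNA for each of the 180 zinc-finger rows, in order of value, with the recovered SE as a grey bar. The 46 rows called higher reach 1.47 (Zfp654) and the 11 called lower reach -1.33 (Zfp640), with 123 rows not called between and among them.

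Zfp654 stood highest, at 1.47 ± 0.34 (SE; 2.76-fold, adjusted p = 0.0106) per the authors' deposited table. It was followed there by Zfp521 at 1.35 ± 0.40 (2.55-fold, adjusted p = 0.0216), a nuclear factor that partners Ebf1 in progenitor cells, and by Zfp846 at 1.345 ± 0.26 (2.54-fold, adjusted p = 0.00746). The SE and the fold beside each difference were computed from the deposited values. The errors of these 3 values are wider than the gaps between them, so they have no firm order. Zfp825 (1.22 in the higher of its rows), Zfp719 (1.12), Zfp740 (1.09), Zfp781 (1.09) and Zfp595 (1.05) came next per the authors' deposited table. Among them Zfp719 had the smallest adjusted p of all the zinc-finger rows, 0.00492, per the authors' deposited table. Zfp644, which in human cells recruits the histone methyltransferase G9a, stood at 1.09 and Zfp451, a SUMO ligase, at 1.01 per the authors' deposited table. The other 36 rows called higher ran from 0.47 to 1.01 per the authors' deposited table. They include genes picked for mention after their values were seen, for their known roles. These are Zfp410 (0.98), the transcriptional activator of the chromatin remodeller gene Chd4, Champ1 (listed as Zfp828, 0.81), which acts in chromosome alignment at mitosis, and Zfp609 (0.63), a partner of the cohesin loader Nipbl, all per the authors' deposited table.

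Among rows called lower, Zfp640 stood at -1.33 ± 0.42 (2.52-fold, adjusted p = 0.0257) and Zfp811 at -1.23 ± 0.35 (2.34-fold, adjusted p = 0.0194) per the authors' deposited table. Zfp600 followed at -1.08 and Zfp423, an Ebf1-binding regulator of preadipocyte commitment, at -1.03 ± 0.21 (2.04-fold, adjusted p = 0.00866) per the authors' deposited table. Zfp423 and Zfp521 are paralogues, and they stood 1.03 below and 1.35 above 0 in the same precipitates. Zfp616 (-0.98), the neural repressor Zfp536 (-0.90), the schizophrenia-associated Zfp804a (-0.89), Zfp791 (-0.76), Zfp618 (-0.60) and Zfp467 (-0.55) complete the genes called lower per the authors' deposited table. A large difference was not always called: Zfp709 stood at -1.31 with an SE of 0.52 and missed the threshold (adjusted p = 0.0568) per the authors' deposited table. The smallest called difference was 0.47 in size there. With each comparison centred on its median over all rows, Zfp618 (adjusted p = 0.0517), Zfp467 (adjusted p = 0.0552) and the Zfp640 row at -0.83 (adjusted p = 0.0609) were no longer called in the recovered test.

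With the Airn siRNA 3 zinc-finger rows were called, all higher, and none lower. They were Zfp426 at 1.14 ± 0.26 (2.2-fold, adjusted p = 0.0493), Zfp763 at 1.02 ± 0.22 (2.03-fold, adjusted p = 0.0462) and Zfp583 at 0.98 ± 0.22 (1.97-fold, adjusted p = 0.0474) per the authors' deposited table, under the transcript cluster identifiers 10591241, 10449971 and 10559766. The share of 1.67% compares with 1.05% of all rows called in either direction and 0.63% called higher, or 0.964% and 0.786% of rows with a single symbol. All of these adjusted p lie close to the threshold, and no zinc-finger row was called when the deposited p-values were adjusted over the rows with a single symbol (adjusted p = 0.0531 for each). Before adjustment, 67 of the 180 rows had p under 0.05, 51 higher and 16 lower, per the authors' deposited table, or 37.2% against 32.9% of all rows and 36.6% of rows with a single symbol, which is near the members' share.

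Zfp763 was the one row called with both siRNAs (1 of 180, against 0.83% of all rows), at 1.01 and 1.02 per the authors' deposited table. Zfp426 and Zfp583 stood at 0.39 (adjusted p = 0.226) and 0.48 (adjusted p = 0.0831) with the scrambled siRNA per the authors' deposited table, with no call there. Just outside the threshold with the Airn siRNA were Zfp740 (0.95, adjusted p = 0.0550) and the imprint regulator Zfp445 (1.13, adjusted p = 0.0596) per the authors' deposited table. The lowest values with this siRNA were those of Zfp709 (-1.25) and Zfp811 (-1.15, adjusted p = 0.0761) per the authors' deposited table, which were also among the lowest with the scrambled siRNA. Zfp541, a testis factor of male meiosis picked after its values were seen, stood at -0.41 and -0.67 with the scrambled and the Airn siRNA per the authors' deposited table. It was called with neither siRNA, and lower in the average over both (-0.54 ± 0.13). The median of the 180 rows was 0.23 with the Airn siRNA per the authors' deposited table, against -0.06 over all rows and 0.04 over rows with a single symbol. Above 0 lay 117 rows or 65.0%, against 47.5% of all rows and 51.5% of those with a single symbol.

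The pattern over members was much alike with the siRNAs, whose comparisons share no arrays. Of the 180 rows, 101 lay above 0 with both, 54 below 0 with both and 25 had opposite signs, so 86.1% kept their sign, against 87.8% of all rows. In each of 57 rows called with the scrambled siRNA, the Airn-siRNA value had an equal sign per the authors' deposited table. The matching share over all rows called with the scrambled siRNA is not given here, so this cannot be called particular to zinc-finger rows. Across the 180 rows Pearson's r between the siRNAs was 0.82 and Spearman's rho 0.80, given as a description because rows of 1 table are not independent replicates. Of the 46 rows called higher with the scrambled siRNA 40 stood lower with the Airn siRNA, and of the 11 called lower 10 stood closer to 0. These rows were picked by their size with the scrambled siRNA, so the counts are a description only.

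**Figure D2:**
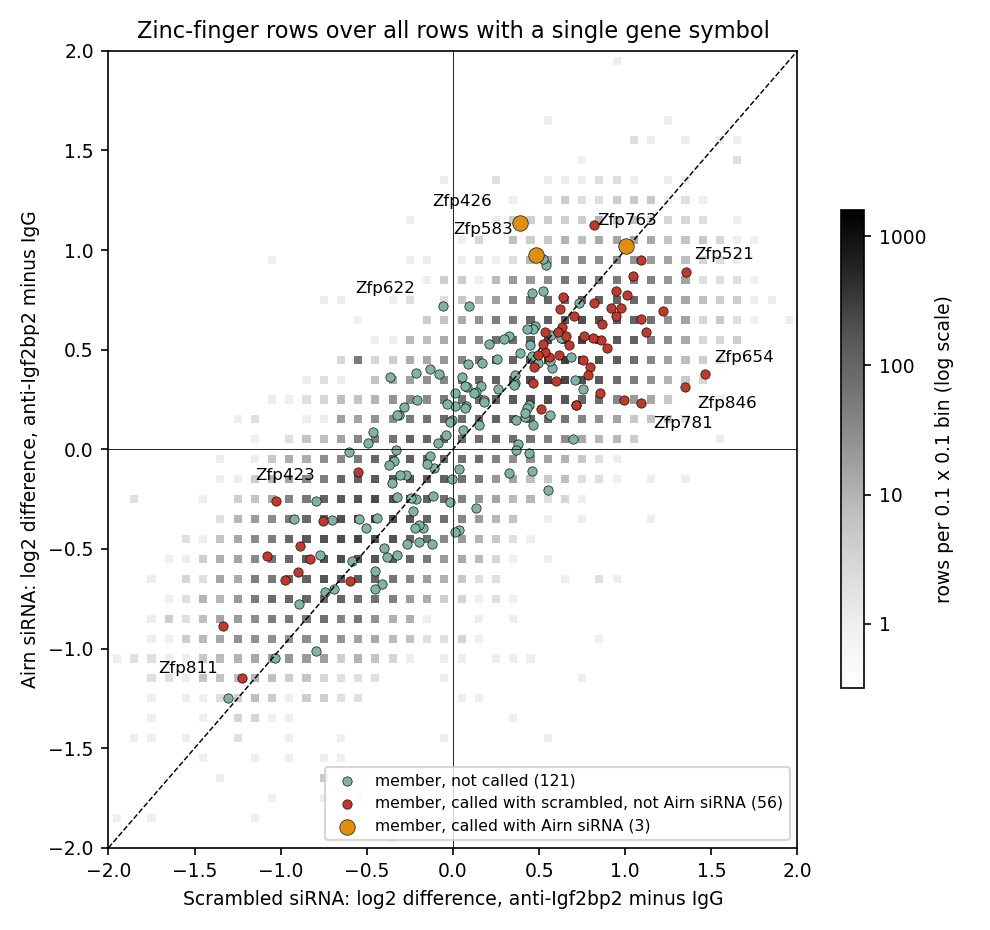
Log2 difference, anti-Igf2bp2 minus IgG, with the scrambled siRNA (horizontal) and the Airn siRNA (vertical) for the 180 zinc-finger rows (points) over all rows with a single gene symbol (grey bins, within the plotted range of values). The dashed line marks equal values; Zfp763 lies on it at 1.01 and 1.02, Zfp426 and Zfp583 lie above it, and Zfp654, Zfp846 and Zfp781 lie below it.

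The change of enrichment, taken as Airn siRNA minus scrambled siRNA, addresses whether Airn silencing altered the recovery of these transcripts with Igf2bp2. No zinc-finger row was called (0 of 180, Benjamini-Hochberg over all rows), as was no row of the whole table (0.0%), and the smallest adjusted p among the 180 was 0.998. Before adjustment 6 of the 180 rows had p under 0.05, or 3.33%, against 3.45% of all rows and 2.74% of rows with a single symbol. The smallest p was that of Zfp622, a factor of large ribosomal subunit maturation, which stood at -0.06 with the scrambled and 0.72 with the Airn siRNA per the authors' deposited table. Its change was 0.78 ± 0.26 (95% interval 0.22 to 1.34) and had an adjusted p of 0.998. Zfp846 stood at 1.345 and 0.31, Zfp654 at 1.47 and 0.38 and Zfp781 at 1.09 and 0.23 per the authors' deposited table, with changes of -1.03 ± 0.37, -1.09 ± 0.47 and -0.86 ± 0.39. Zfp423 differed in the other direction, at -1.03 and -0.26 per the authors' deposited table, a change of 0.77 ± 0.30. For Zfp763 the change was 0.01 ± 0.31 (95% interval -0.65 to 0.68), and for Zfp426 it was 0.75 ± 0.37 (95% interval -0.03 to 1.53). The 95% interval lay within 1 log2 unit of 0 for 102 of the 180 rows, and the median half-width was 0.69, so changes under that size were mostly not detectable for a single transcript. These intervals are not adjusted over rows. After adjustment larger changes, such as those of Zfp654 and Zfp846, were not called either, so changes above 0.69 could also go uncalled.

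Averaged over both siRNAs, 70 zinc-finger rows were called higher and 30 lower, which is 38.9% and 16.7%, against 29.2% and 29.0% of all rows and 58.2% of all rows in either direction. Of rows with a single symbol 36.3% were higher and 29.0% lower, so the share called higher was near that background and the share called lower was below it. Centring gave 80 higher and 21 lower (44.4% and 11.7%), against 40.4% and 21.8% of rows with a single symbol. All 46 and 11 rows called with the scrambled siRNA were called the same way in this average, with 24 further rows higher and 19 lower. The average contains the scrambled-siRNA values behind those calls, so their return is a description only. The highest averages of genes named here were those of Zfp521 (1.12 ± 0.28), Zfp740 (1.02 ± 0.17), Zfp763 (1.01 ± 0.16), Zfp445 (0.97 ± 0.20) and Zfp595 (0.96 ± 0.17), whose errors overlap. Zfp709 averaged -1.28 ± 0.37 (adjusted p = 0.0103) and Zfp811 -1.19 ± 0.25 (adjusted p = 0.00279), both called lower. The comparisons were treated as independent in this average.

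Related zinc-finger families also had more rows called higher than lower with the scrambled siRNA. So did all rows (20.4% higher and 16.8% lower) and rows with a single symbol (25.9% and 16.6%). Of the 149 rows of the lower-numbered genes Zfp1 to Zfp399, 20.8% were higher and 4.7% lower, with a median of 0.33, per the authors' deposited table. The 37 rows of Zbtb genes, whose proteins pair zinc fingers with a BTB domain, were 27.0% higher and 2.7% lower, with a median of 0.33 per the authors' deposited table. The 19 rows of Zkscan and Zscan genes, whose proteins carry a SCAN domain, were 15.8% higher and 10.5% lower, with a median of 0.09 per the authors' deposited table. The share called higher was thus near that of rows with a single symbol for Zbtb genes and below it for the other families. These shares were not tested against each other. In all of these families the share called lower was under the 16.8% of all rows, which also hold rows without a gene symbol.

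**Figure D3:**
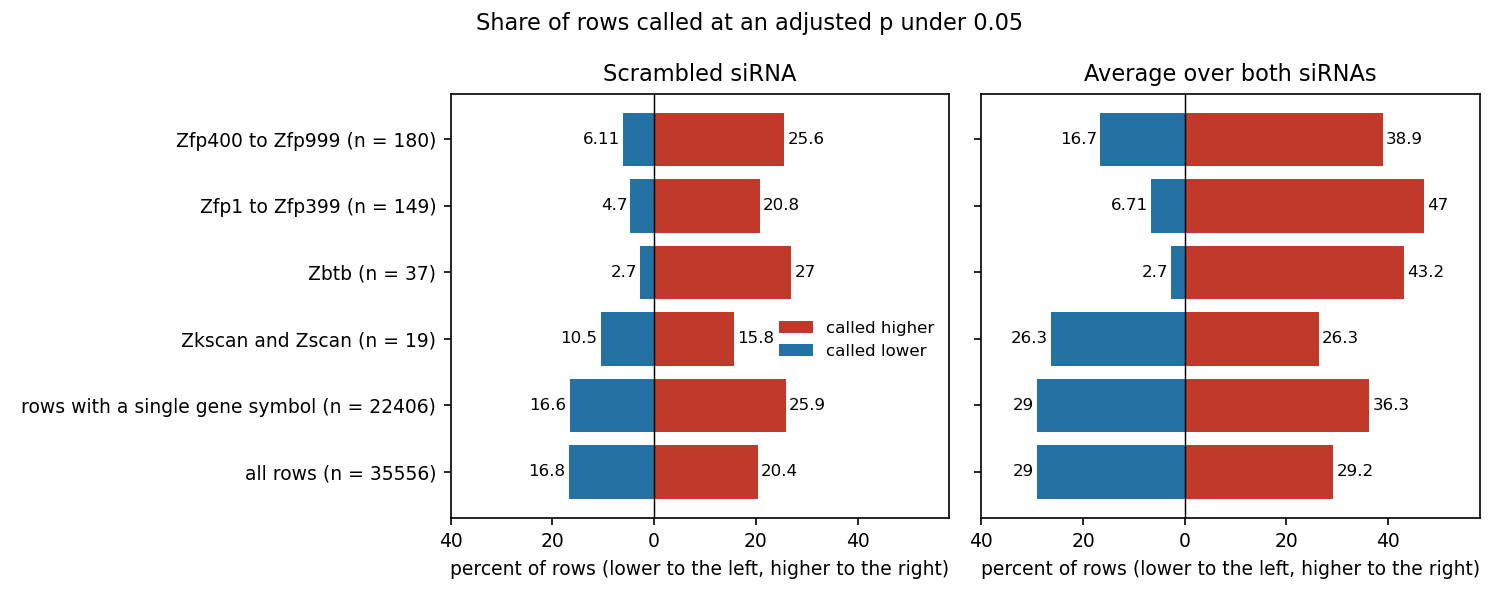
Percent of rows called higher (right) and lower (left) at an adjusted p under 0.05, with the scrambled siRNA and averaged over both siRNAs, for the zinc-finger series, related families, rows with a single symbol and all rows. With the scrambled siRNA 25.6% of Zfp400 to Zfp999 rows were called higher and 6.11% lower, against 20.4% and 16.8% of all rows.

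Members with roles at the ribosome or in RNA and SUMO metabolism stood mostly above 0. Zfp473 and Zfp638, also on this list, had no row with a single symbol. A row shared by Zfp473 and Vrk3 stood at -0.27 with the scrambled and -0.02 with the Airn siRNA per the authors' deposited table, not called. Of 6 measured, 3 were called higher and none lower with the scrambled siRNA, and none was called with the Airn siRNA, per the authors' deposited table, with medians of 0.48 and 0.54. Over rows with a single symbol 25.9% were higher and 16.6% lower with the scrambled siRNA, and 0.964% were called with the Airn siRNA. Zfp598, the ubiquitin ligase that marks collided ribosomes, stood at 0.54 (adjusted p = 0.0444) and 0.49, and Zfp451 at 1.01 and 0.77, per the authors' deposited table. The small protein gene Zfp706 was called higher in both of its rows with the scrambled siRNA, at 0.62 and 0.56, per the authors' deposited table. Zfp593, whose yeast counterpart acts in export of the large ribosomal subunit, stood at 0.43 and 0.60 and the splicing-associated Zfp830 at 0.26 and 0.45 per the authors' deposited table, and neither was called. In the average over both siRNAs all 6 were called higher, against 36.3% of rows with a single symbol, and Zfp622 and Zfp830 were not called when a correlation of 0.3 between the comparisons was assumed.

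KRAB proteins known from retroelement and imprint control were split. Zfp932, also on this list, had no row with a single symbol. Of 6 measured, 2 were called higher and 1 lower with the scrambled siRNA, and none with the Airn siRNA, per the authors' deposited table. With so few genes this is near the 25.9% higher and 16.6% lower of rows with a single symbol with the scrambled siRNA, and the 0.964% called with the Airn siRNA. Zfp568, which represses a placental promoter of Igf2 in mice, stood at 0.94 ± 0.26 (adjusted p = 0.0172) and 0.80 (adjusted p = 0.0829), and Zfp445, which maintains imprints, at 0.82 ± 0.29 (adjusted p = 0.0379) and 1.13, per the authors' deposited table. Zfp809, which silences proviruses of murine leukaemia virus, stood at 0.46 and 0.47 and the retroelement-binding Zfp708 at 0.35 and 0.32 per the authors' deposited table, not called in either. Zfp819 stood at -0.23 and -0.31 and Zfp600 at -1.08 (called lower) and -0.54 per the authors' deposited table. In the average 4 were called higher, namely Zfp445 (0.97 ± 0.20), Zfp568 (0.87 ± 0.18), Zfp809 (0.46 ± 0.14) and Zfp708 (0.34 ± 0.13), and Zfp600 was called lower (-0.81 ± 0.25). The average called 36.3% of rows with a single symbol higher and 29.0% lower, so most rows were called there. At an assumed correlation of 0.3 Zfp708 was not called (adjusted p = 0.0736).

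Developmental and chromatin regulators without a KRAB box lay on both sides of 0. Zfp507, also on this list, had no row with a single symbol. Rows shared by Zfp507 and E130304I02Rik stood at 0.35 (not called) and -0.66 (called lower) with the scrambled siRNA per the authors' deposited table. Of 15 measured, 4 were called higher and 3 lower with the scrambled siRNA per the authors' deposited table, with medians of -0.22 with the scrambled and 0.16 with the Airn siRNA, and none was called with the latter. These shares are near the 25.9% higher and 16.6% lower of rows with a single symbol with the scrambled siRNA, and the 0.964% called with the Airn siRNA. Centred on the median of all rows, 6 were higher and 2 lower. In the average 5 were called higher and 5 lower, against 36.3% and 29.0% of rows with a single symbol, and Zfp467 lost its call with centring and at an assumed correlation of 0.3. Called higher with the scrambled siRNA were Zfp521, Zfp644, Zfp462 (0.89, a gene of neural development) and Zfp687 (0.66, which forms a complex with Zmynd8) per the authors' deposited table. Zfp592, a paralogue and partner of Zfp687, stood at 0.575 and was not called there (adjusted p = 0.0563) per the authors' deposited table. In the average it was called higher (0.49 ± 0.16). Called lower with the scrambled siRNA were Zfp423, Zfp536 and Zfp467. The epidermal differentiation factor Zfp750 stood at -0.32 and -0.53, the X-linked Zfp711 at -0.79 and -1.01, and the striatal factor Zfp503 at -0.28 and 0.21 per the authors' deposited table, with no call with either siRNA. In the average Zfp750 (-0.43 ± 0.14) and Zfp711 (-0.90 ± 0.30) were called lower, and Zfp503 was not called. Zfp516, a brown-fat regulator (0.44 and 0.22), Zfp704 (0.42 and 0.16), Zfp703 (-0.33 and -0.24) and the oligodendrocyte factor Zfp488 (-0.22 and -0.40) were not called either per the authors' deposited table.

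Genes listed for the KRAB co-repressor and heterochromatin, DNA methyltransferase genes among them, stood above 0, except in a second row of Chd3. Cbx3, Fam208a and Mphosph8, also on this list, had no row with a single symbol. With the scrambled siRNA the authors' deposited table called 9 of 16 measured genes higher and none lower, each through its row with the smallest SE, with values from 0.39 to 0.98 and a median of 0.66. Over rows with a single symbol 25.9% were higher and 16.6% lower. Centred on the median of all rows, 15 of the 16 were called higher, against 32.5% of rows with a single symbol. Trim28 stood at 0.67 (adjusted p = 0.0269), Setdb1 at 0.65 (adjusted p = 0.0315), the heterochromatin protein gene Cbx1 at 0.94 and the histone deacetylase gene Hdac2 at 0.98 per the authors' deposited table. With the Airn siRNA none of the 16 was called (median 0.42) per the authors' deposited table. Of rows with a single symbol only 0.964% were called with that siRNA, so a list of 16 genes without a call is near this share. A second row of Chd3, a chromatin remodeller gene, stood at -0.15 against 0.44 in its other row, neither called, per the authors' deposited table. A second row of Atf7ip, a partner of Setdb1, stood at 0.92 (called) against 0.40 (not called) in the row counted here, per the authors' deposited table. In the average all 16 were called higher, against 36.3% of rows with a single symbol. At an assumed correlation of 0.3 it was 12 of 16, against 30.8%, and Chd4, Atf7ip, Dnmt3b and Dnmt3a (a chromatin remodeller gene, the Setdb1 partner and DNA methyltransferase genes) were not called. For Atf7ip this holds for the row at 0.40.

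**Figure D4:**
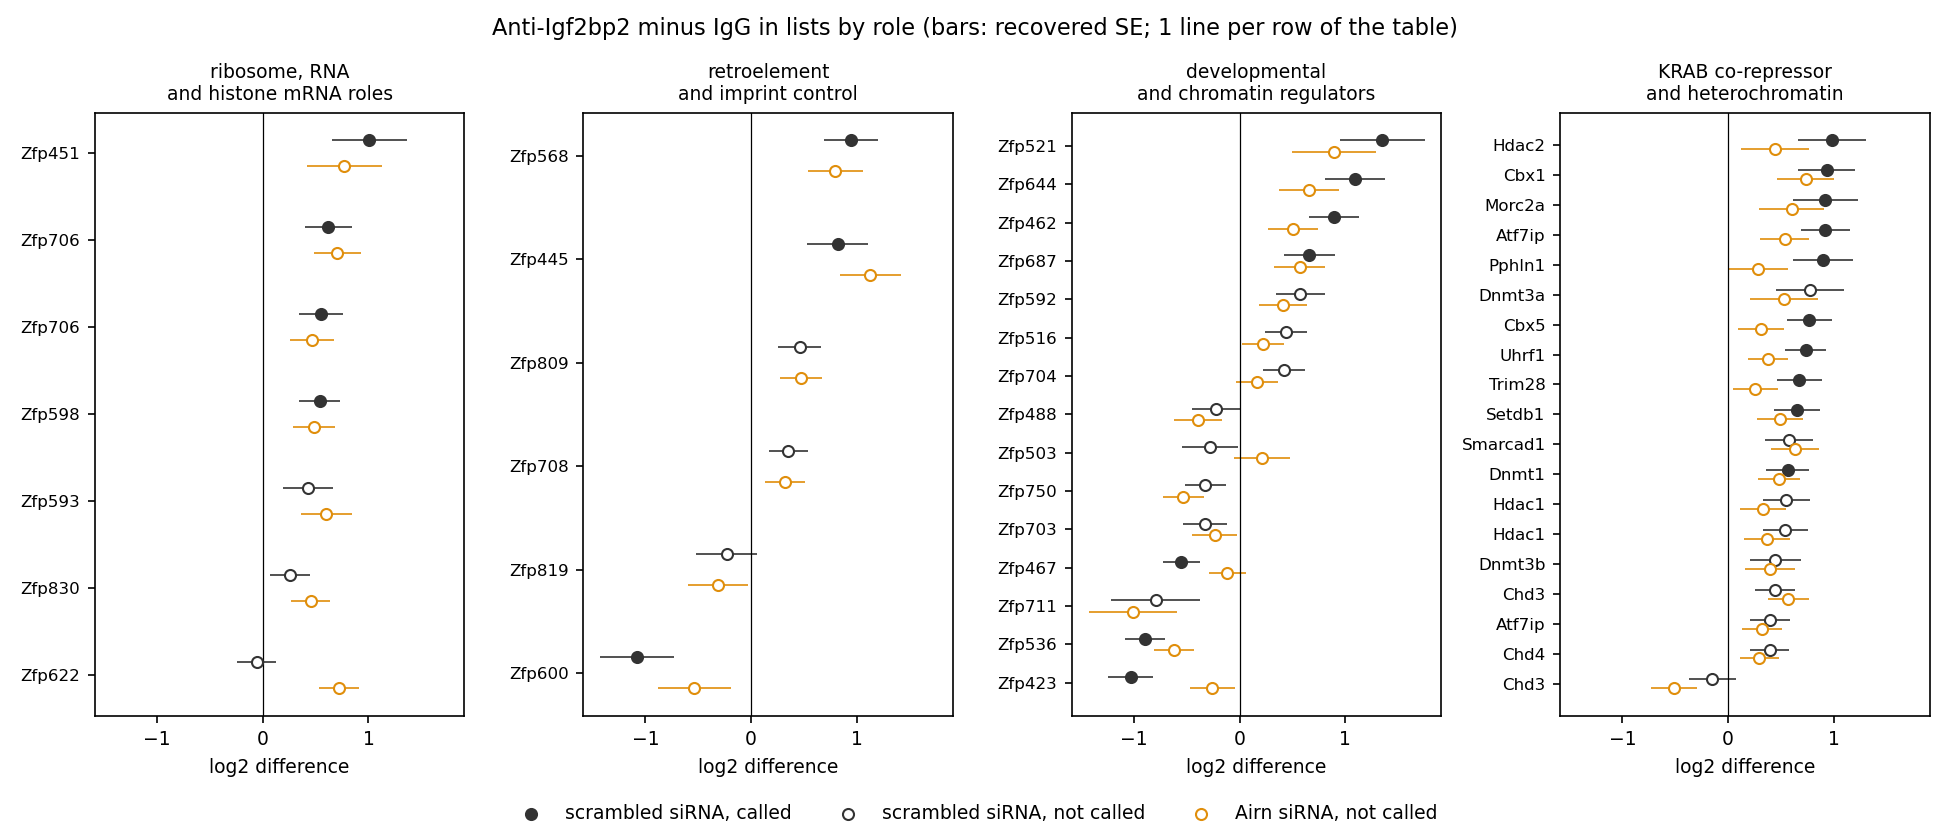
Log2 difference, anti-Igf2bp2 minus IgG, with the scrambled siRNA (black) and the Airn siRNA (orange) for every row of the genes in each role list, with the recovered SE as bars. Filled points were called. The developmental regulators run from -1.03 (Zfp423) to 1.35 (Zfp521), and the co-repressor and heterochromatin genes lie above 0 except in 1 row of Chd3.

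Genes measured by more than 1 row show how far rows of the same symbol differ. There were 10 such symbols with 22 rows, and in 7 of them all rows had the same sign with the scrambled siRNA. The rows of Zfp640 stood at -1.33, -1.03 and -0.83, of which the middle one was not called (adjusted p = 0.0545), per the authors' deposited table. Further rows list Zfp640 together with other genes, so its rows may share sequence with near-identical copies and its values are uncertain. The Zfp825 rows stood at 1.22 and 0.60, both called higher, per the authors' deposited table. Those of Zfp422 stood at 0.68 (called) and -0.37, those of Zfp664 at 0.92 (called) and -0.15, and those of Zfp738 at 0.01, -0.11 and -0.20 per the authors' deposited table. The rows of Zfp407 (0.56 and 0.37), Zfp689 (0.70 and 0.17) and Zfp558 (-0.02 and -0.80) were not called per the authors' deposited table. The rows 10536068 and 10552320 of Zfp788 held identical values (0.71 and 0.22) and count as 1 measurement. With 1 row per symbol, 42 of 168 genes were called higher and 10 lower with the scrambled siRNA.

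Zinc-finger genes often lie side by side in the genome, and neighbours were read off the order of protein-coding genes in RefSeq. In 20 runs, 51 members lay next to another member, which gave 31 adjacent pairs. With the scrambled siRNA 15 of these pairs had the same sign, and with the Airn siRNA 15. In the run Zfp871, Zfp811, Zfp799 and Zfp870 the authors' deposited table gave 0.86 (called), -1.23 (called), -0.59 and 0.64 (called) with the scrambled siRNA. In the run Zfp455, Zfp458, Zfp457 and Zfp595 the authors' deposited table gave -0.61, 0.73, 0.46 and 1.05 (called). Zfp583 neighbours Zfp667, which stood at 0.25 with the Airn siRNA against 0.98 for Zfp583 per the authors' deposited table. The median gap between neighbours was 0.59 with the scrambled siRNA. Neither the pair counts nor this gap were set against members that are not neighbours, so neighbours cannot be called alike or unlike.

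Promoter windows were found for 135 of the 168 genes, and the count of CpG dinucleotides on the strand printed was set against the differences as a description. Over the 14954 genes with a single symbol and a window, the CpG count went along with the difference with the scrambled siRNA (Spearman's rho = 0.52), and medians were -0.54 with under 5 CpG, -0.18 with 5 to 14 and 0.51 with 15 or more. Over the 135 zinc-finger genes the relation was weak (Spearman's rho = 0.08 with the scrambled and 0.16 with the Airn siRNA), with medians of 0.02, 0.10 and 0.18 in the same classes. Windows with 15 or more CpG were about as common among zinc-finger genes (54.1%) as among all (51.4%), while those with under 5 CpG were 4.44% against 24.8%. In the class of 15 or more CpG 21.9% of 73 zinc-finger genes were called higher with the scrambled siRNA per the authors' deposited table, against 42.9% of all genes in it. In the class of 5 to 14 CpG it was 26.8% of 56 against 19.7%. These genes share 1 table and the families share sequence, so the points are not independent, and the difference between these relations was not tested.

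**Figure D5:**
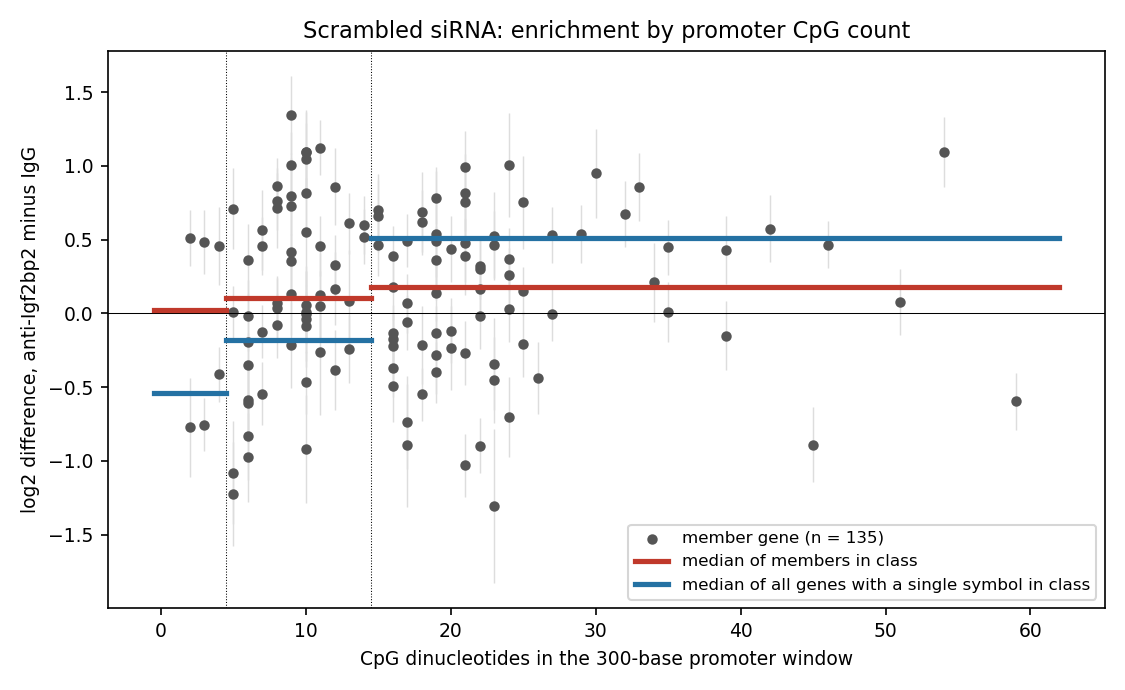
Log2 difference, anti-Igf2bp2 minus IgG, with the scrambled siRNA against the number of CpG dinucleotides in the promoter window, for 135 zinc-finger genes (points with the recovered SE). Horizontal lines are class medians: those of zinc-finger genes run from 0.02 to 0.18 and those of all genes from -0.54 to 0.51.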

How the data were processed

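Per the labels' protocols, precipitated RNA was made into biotinylated cRNA and read on Affymetrix arrays. The deposited table gives, per the file headers, a log2 difference (log base not stated), a p-value and an adjusted p-value for anti-Igf2bp2 against IgG with each siRNA. Normalization, filters and model: not given in the sources used here. Whether the replicates were separate cultures is known only from their label as biological replicates, and signal over background could not be examined.

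The table holds no values of single arrays, so the authors' calls were used. The deposited adjusted p-values matched Benjamini-Hochberg values over all rows within 0.00023 wherever p was at least 0.001. Each row's SE follows from its deposited difference and p, with 16.13 degrees of freedom for all rows, the value at which both comparisons gave the same SE (median disagreement 0.0642% over 30130 rows). The change and the average of the comparisons were tested against a t distribution and adjusted over all 35556 rows. The recovery was tested on simulated arrays fitted with limma 3.58.1 in R 4.3.3; other steps used Python 3.11.15, pandas 2.3.3 and scipy 1.17.1. Calls are adjusted p under 0.05. List counts take the row with the smallest SE of each gene.

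Named genes are the rows called with the Airn siRNA, the 10 highest and 10 lowest called with the scrambled siRNA, the 5 with the smallest p of change, symbols with several rows and the lists by role, plus a few chosen after their values were seen and said to be so, Zfp709 and neighbours. The members and lists were chosen with earlier results of these data known. The planned grouping by finger and KRAB patterns in proteins was not run, because protein sequences were not used here. Where a gene has several promoter windows (25 of the 135 zinc-finger genes), the first listed was taken. Alternatives were other thresholds, a size minimum of 0.5, adjustment over rows with a single symbol, centring, 1 row per symbol and assumed correlations of 0.3 and -0.3.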

Additional observations from a re-analysis of the deposited data

How the results depend on the processing

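No paired analysis was possible because the deposited table holds comparisons and no values of single arrays; for the same reason no replicate could be left out. With a threshold of 0.01, 8 zinc-finger rows were called with the scrambled siRNA, 0 with the Airn siRNA and 52 in the average. At 0.1 there were 87 with the scrambled and 32 with the Airn siRNA. The shares of all rows at these thresholds are not given here, so the counts cannot be called particular to zinc-finger rows. Adjusted over rows with a single symbol, 0 were called with the Airn siRNA, and centred on the median of all rows, which moves values up by 0.10 (scrambled) and 0.06 (Airn), 9 were. These 9 were all higher, or 5.0%, and centring also raised the share called higher to 3.47% of rows with a single symbol and 2.7% of all rows. The 3 called rows had adjusted p close to 0.05, and the cause was not tested. Every other alternative kept each of these counts within 1.5 times, and the change of enrichment had 0 calls under each alternative run. Both medians stayed positive with 1 row per symbol. Centring raises every value, so it could not turn a positive median. Only centring moves a value, and by less than any called difference, so the sign of a called value was fixed in advance and is no check. The number of arrays limits the precision.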

Other observations

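Beside the 180 rows, 27 rows list a symbol of the same form together with other genes and belong to no single gene. Of these, 6 were called higher and 5 lower with the scrambled siRNA per the authors' deposited table, and 0 with the other siRNA, with medians of 0.33 and 0.28. These counts are near the 20.4% higher, 16.8% lower and 1.05% called of all rows. A row shared by Zfp821 and 1700008F21Rik stood at -0.99 with the scrambled siRNA, while the row of Zfp821 alone stood at 0.95, both called per the authors' deposited table. A row shared by Zfp553 and Gm4532 stood at -0.71 (called) with the scrambled siRNA, while the row of Zfp553 alone stood at 0.52 (not called) per the authors' deposited table.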
